A study of Mus musculus with 6 samples.

Results

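The IL-17, IL-22 and IL-23 axis was examined through 9 genes: the cytokine genes Il17a, Il17f, Il22 and Il23a, the receptor genes Il17ra, Il17rc, Il22ra1 and Il23r, and Il22ra2, which encodes a soluble IL-22 binding protein. They were chosen by their symbols, and all gene probes carrying one of these symbols in the scanner output were taken, which gave 13 probes. The array names 37325 genes in all, of which 19090 could be tested, 5 members among them. Colon tissue with tumors came from male C57BL/6 mice, bought as young animals, and each of the 6 samples was measured on 1 single-color Agilent array, a glass slide carrying 60-base probes to which Cy3-labeled cRNA is hybridized. All mice had received azoxymethane (AOM), a carcinogen, and dextran sodium sulfate (DSS) in the drinking water, which injures the colon lining, so that tumors arose on an inflamed background. Of these, 3 samples came from mice that received oral RG@M-γ-CD, a complex of the kinase inhibitor regorafenib (RG) with mannose-modified γ-cyclodextrin, and 3 from mice that received PBS instead. No healthy colon is among the 6 samples, so the levels are those of treated and untreated diseased tissue only. The study describes the samples of a group as independent mice, so that the spread between arrays holds that between mice, while the labels name neither a mouse for each array nor the age at sampling.

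IL-23, made mainly by dendritic cells and macrophages, is a pair of the Il23a product with the Il12b product, and it acts on lymphocytes that carry the receptor encoded by Il23r and Il12rb1. Such lymphocytes, the T helper cells called Th17, γδ T cells and innate lymphoid cells, secrete IL-17A, IL-17F and IL-22. IL-17 is sensed by the Il17ra and Il17rc products on epithelial and stromal cells, which answer with neutrophil-attracting chemokines and antimicrobial proteins. IL-22 is sensed by epithelial cells through the Il22ra1 and Il10rb products, drives antimicrobial and repair genes through STAT3, and is neutralized by the Il22ra2 product. The axis protects the colon lining during injury and is also known to feed tumor growth in inflamed colon, which is why its state under treatment is of interest here.

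A level is given throughout as log2 intensity relative to the 75th percentile of its own array (taken over gene probes), so that a level of 0 equals that percentile and 1 unit is a doubling. A probe was called well above background where the scanner software marked it so. This held for 49.6% to 55.2% of the 56605 gene probes, depending on the array. All 9 markers of epithelium, Cdx2 and Krt20 among them, could be tested, with a median log2 difference between the groups of 0.03. The array labeled RG@M-γ-CD replicate 1 stood apart from the other treated arrays: its smooth muscle markers summed to 97.6 times the percentile level, against 636 and 769 in RG@M-γ-CD replicates 2 and 3 and 188 to 220 in the PBS arrays. A heat map in the study's supplement also joins the arrays otherwise than the labels do, with RG@M-γ-CD replicates 2 and 3 and PBS replicate 1 on one side. The labels were followed, and values for this heat map grouping are given where they turn the direction of a member or a named pathway gene.

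The probe decides what can be read for a gene of this axis, and the last 30 bases of some of the probes on which the readings turn are shown 5′ to 3′, with the polyadenylation hexamer AATAAA in capitals. Il17rc is shown because its 3 probes differ in place and strand, and Il22 because the array also carries a probe for Iltifb, a near-identical copy of Il22 in this mouse strain.
Il17a, chr1:20724404-20724463: cctctgaatggggtgaaaaccaaacttagt
Il17rc probe 1, chr6:113426521-113426776: actttaaaccacacagacctggttccctgc
Il17rc probe 2, chr6:113433065-113433124: ctgcactacactagAATAAAagccgataca
Il17rc probe 3, chr6:113429449-113429508: tcttgaatgaatgcttttgtttttgaattt
Il22 probe 1, chr10:117646736-117646795: gaggtagacttgataaccacaaagattcat
Il22 probe 2, chr10:117642873-117642932: tgaccaaactcagcaatcagctcagctcct
Iltifb, chr10:117726686-117726745: taggctttAATAAAcacatgaatatcataa

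Coordinates are those of the scanner files in the mm9 build, and an annotation of exons and untranslated regions in that build was not used here. Il17a, Il22 and Il17rc probes 1 and 2 lie on the plus strand and Iltifb on the minus strand. Il17rc probe 3 lies on the minus strand, opposite to the other Il17rc probes, and may therefore read an antisense transcript. Il17rc probe 1 spans 256 bases of the genome and the single Il17f probe, at chr1:20768074-20769419, spans 1346 bases, more than the 60 bases of a probe, so that the matched sequence is split. The hexamer, searched on the probe strand only, was found in the last 30 bases of 8.13% of all gene probes and, among those printed, in Il17rc probe 2 and Iltifb. Other probes lie at chr6:120432880-120432939 for Il17ra, chr10:19354355-19354414 for Il22ra2 and chr6:67372966-67373025 for Il23r, and both Il22ra1 probes lie at chr4:135308423-135308482 and chr4:135307757-135307816.

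The lymphocyte side of the axis was at the limit of the arrays. Il17f and Il23r, the receptor gene that marks IL-23-responsive lymphocytes, did not rise well above background on a single array. The intensity of the Il17f probe was 4.07 to 5.90 and that of the Il23r probe 4.12 to 4.84, and the Iltifb probe was at 3.90 to 4.46. No difference between the groups was detectable for either member at this signal.

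Il17a, the founding cytokine of the family, was well above background on 3 of 6 arrays, 1 from RG@M-γ-CD and 2 from PBS. Its intensity was 64.9, 4.88 and 4.73 in RG@M-γ-CD replicates 1 to 3 and 35.1, 8.29 and 63.5 in PBS replicates 1 to 3. The corresponding levels were -3.05, -6.32 and -6.43 with RG@M-γ-CD and -3.66, -5.27 and -2.82 with PBS. RG@M-γ-CD replicate 1 and PBS replicate 3 were thus the highest, and the groups overlapped. Il17a missed the filter for the test, which required a probe to be well above background on all arrays of a group. In the fit without that filter its log2 difference was -1.35 (SE 1.04, n = 3 per group; limma adjusted p = 1.0).

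Il22 was well above background on PBS replicate 1 alone, by both of its probes. With probe 1 the levels were -4.65, -5.64 and -5.33 in the RG@M-γ-CD arrays and -2.32, -5.78 and -4.82 in the PBS arrays. With probe 2 they were -5.64, -4.91 and -6.55 against -3.98, -5.97 and -5.30. PBS replicate 1 was highest with both probes, and the other PBS arrays lay within the treated range or next to it. PBS replicate 1 also had the highest mean level of 5 tested B and plasma cell markers, 1.17 on the log2 scale after centering each gene on the 6 arrays against -1.09 to 0.28 on the other arrays, and the part of these cells in the Il22 signal was not tested. Since Iltifb is so similar in sequence, transcripts of both genes may contribute to an Il22 probe, and the assignment is uncertain.

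**Figure D1:**
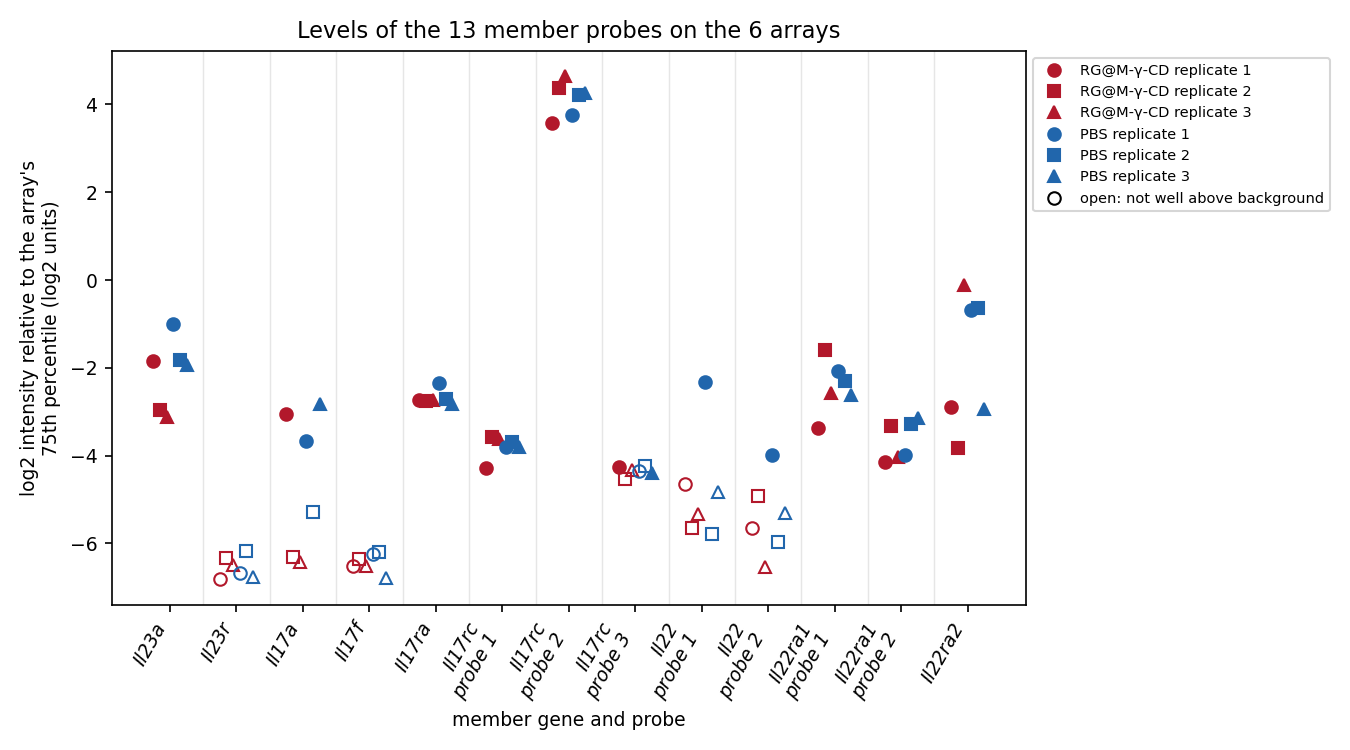
Levels of the 13 member probes (x axis) as log2 intensity relative to the 75th percentile of each array (y axis), 1 point per array, red for RG@M-γ-CD and blue for PBS, open where the probe was not well above background. Levels of different probes are not comparable with each other. Il17f and Il23r are open on all 6 arrays, Il22 is filled on PBS replicate 1 only, and the Il23a points of RG@M-γ-CD replicates 2 and 3 lie below all PBS points while RG@M-γ-CD replicate 1 lies among them.

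Il23a, the subunit that makes IL-23 distinct from IL-12, had the largest difference of the 5 members that could be tested. Its levels were -1.84, -2.96 and -3.12 with RG@M-γ-CD and -0.997, -1.83 and -1.94 with PBS. RG@M-γ-CD replicates 2 and 3 were below every PBS array, whereas RG@M-γ-CD replicate 1 lay between PBS replicates 2 and 3. The means were -2.64 ± 0.70 (SD, n = 3) and -1.59 ± 0.51 (SD, n = 3), a log2 difference of -1.05 (SE 0.42, 95% interval -2.06 to -0.05), or 2.08-fold lower in mean. The unadjusted limma p was 0.0421 and the adjusted p 1.0, and a two-sided exact permutation test gave p = 0.20, where 3 against 3 cannot go below 0.10. Without RG@M-γ-CD replicate 1 the log2 difference was -1.46 (limma adjusted p = 0.119), with the slide row as a block it was -1.64, and in the heat map grouping it was -0.49.

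Among cells that can express Il23a or answer to IL-23, markers of dendritic cells, macrophages and T cells were lower in mean as well. Dendritic cell markers were lower in mean with RG@M-γ-CD for 3 of 3 tested genes (median log2 difference -0.68), with summed levels of 1.36 to 2.57 against 2.86 to 4.83. The other 4 dendritic cell markers could not be tested, and Xcr1 and Zbtb46 were not well above background on any array. Macrophage markers were lower for 8 of 8 genes (median -0.50), with summed levels of 64.6 to 158 against 133 to 159. T cell markers were lower for 7 of 7 tested genes (median -0.63), with summed levels of 3.82 to 6.70 against 6.30 to 8.08. Innate lymphoid and γδ T cell markers were split, with 3 higher and 3 lower of 6 tested genes (median 0.02). The summed levels of that list were 15.2 to 20.4 with RG@M-γ-CD against 13.6 to 14.7 with PBS. Id2, its brightest gene on each array, was at 3.34, 2.60 and 3.76 against 2.77, 2.74 and 2.68 and made up much of these sums. With each gene centered on the 6 arrays the list averages overlapped, at -0.20, -0.03 and 0.04 against 0.21, 0.10 and -0.13. The part of these cell types in the Il23a difference was not tested, and in bulk tissue fewer cells of a type and less RNA per cell cannot be told apart.

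Il12b, whose product completes both IL-23 and IL-12, was not well above background on the 6 arrays. Il12rb1, the receptor chain that IL-23 shares with IL-12, was measured on all 6 arrays at -3.02, -1.82 and -3.89 with RG@M-γ-CD and -3.44, -3.78 and -2.88 with PBS. These ranges overlapped, and the log2 difference was 0.46 (SE 0.53). Of 6 tested partner genes, 2 were higher and 4 lower in mean (median -0.03) and 0 passed the adjusted threshold, with Stat3, the transcription factor that IL-22 and IL-23 activate, at -0.34 (SE 0.17) and the kinase genes Jak2 and Jak1 at -0.19 and -0.05. Il10rb, the second IL-22 receptor chain, differed by 0.01 (SE 0.17).

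Il17ra, the receptor chain common to several IL-17 cytokines, was the most even member. Its levels were -2.74, -2.74 and -2.73 with RG@M-γ-CD and -2.35, -2.72 and -2.83 with PBS. PBS replicate 1 stood above the other 5 arrays, which lay close together. The 6 arrays spanned 1.40-fold, and 25.9% of all tested genes had a smaller span. The log2 difference was -0.10 (SE 0.18, 95% interval -0.53 to 0.32), and it turned to 0.04 without PBS replicate 1 and to 0.16 in the heat map grouping.

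Il17rc, the chain that pairs with Il17ra for IL-17A and IL-17F, was measured on all 6 arrays by probes 1 and 2. Probe 2 gave levels of 3.58, 4.38 and 4.65 with RG@M-γ-CD and 3.77, 4.21 and 4.27 with PBS. RG@M-γ-CD replicate 1 was lowest and RG@M-γ-CD replicate 3 highest, so that the treated arrays enclosed the PBS arrays. The log2 difference was 0.12 (SE 0.31, 95% interval -0.63 to 0.87), with -0.11 without RG@M-γ-CD replicate 3 and -0.04 without PBS replicate 1. Probe 1 gave -4.27, -3.58 and -3.62 against -3.79, -3.68 and -3.81, a log2 difference of -0.06 (SE 0.23), so that the probes differed in sign but each was well within its error. Probe 3, on the opposite strand, was well above background on 1 array of each group. The smooth muscle markers shared the order of the treated arrays with probe 2, lowest in replicate 1 and highest in replicate 3. Among the PBS arrays they did not, since replicate 1 had the lowest probe 2 level and the highest summed smooth muscle markers. These markers were higher in mean with RG@M-γ-CD for 6 of 6 genes (median 0.90), and their part in the Il17rc levels was not tested.

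Il22ra1, the epithelial IL-22 receptor chain, was measured on all 6 arrays by both of its probes. The first gave levels of -3.37, -1.59 and -2.57 with RG@M-γ-CD and -2.07, -2.29 and -2.62 with PBS. The treated arrays were again the wider group and enclosed the PBS arrays. The log2 difference was -0.18 (SE 0.44, 95% interval -1.25 to 0.89), with 0.25 without RG@M-γ-CD replicate 1 and 0.69 in the heat map grouping. The second probe gave -4.14, -3.33 and -4.02 against -3.99, -3.28 and -3.15, and its log2 difference was -0.36 (SE 0.32).

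Il22ra2, the secreted decoy for IL-22, varied most among the members. Its levels were -2.90, -3.83 and -0.11 with RG@M-γ-CD and -0.68, -0.65 and -2.94 with PBS. RG@M-γ-CD replicate 3 and PBS replicates 1 and 2 were high and the other 3 arrays low, a division that crossed the groups. The 6 arrays spanned 13.2-fold, more than 99.1% of all tested genes. The log2 difference of -0.86 (SE 1.07, 95% interval -3.44 to 1.72) was smaller than its error, and it was -0.08 without RG@M-γ-CD replicate 2, -1.94 without RG@M-γ-CD replicate 3 and 0.63 in the heat map grouping.

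Across the 9 members, 0 of the 5 tested passed the adjusted threshold of 0.05 in limma, against 0% of the 19090 genes tested. The smallest adjusted p of any gene was 0.818, an unadjusted p below 0.05 was reached by 419 genes, and the methods' t-test called 0 genes after adjustment and 381 before it. Of the 5 tested members 4 were lower in mean with RG@M-γ-CD, against 52.8% of all genes, with a median log2 difference of -0.18 against -0.01. Il23a was the member below an unadjusted p of 0.05, and 1.33% of all genes were lower at that level. In 0 of the 5 did every treated array fall under every PBS array, as happened for 2.19% of all genes. In the heat map grouping 1 of the 5 was lower on the side of RG@M-γ-CD replicates 2 and 3 and PBS replicate 1, against 63.8% of all genes, and 0 passed the adjusted threshold, against 0.0259%.

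**Figure D2:**
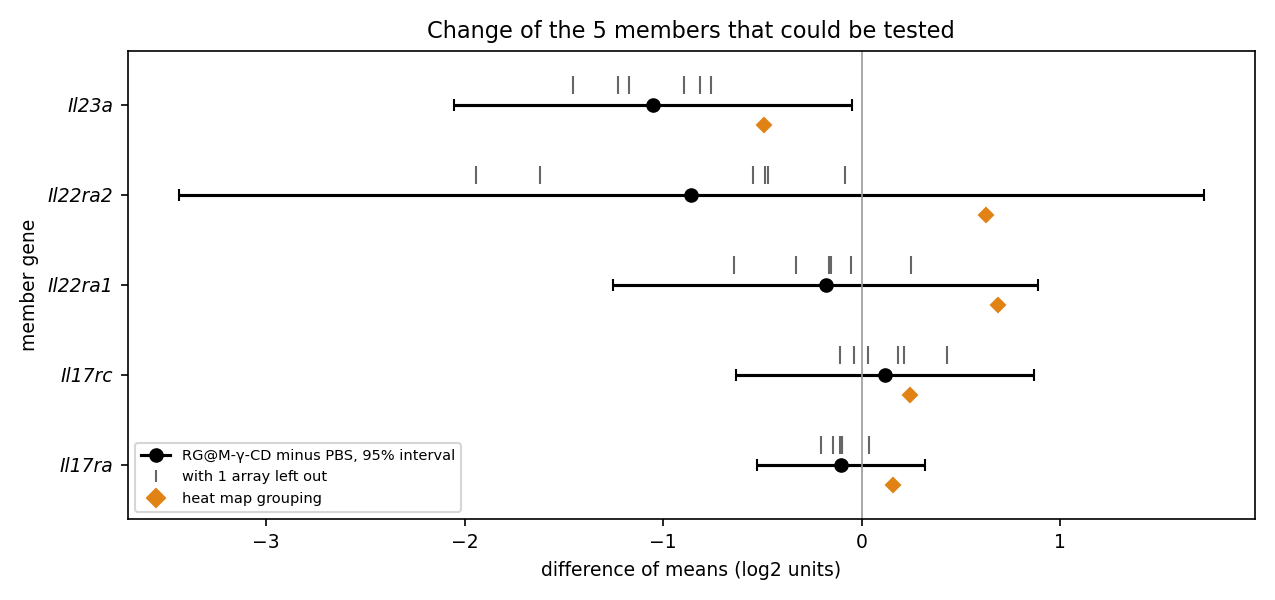
Difference of means in log2 units (x axis) for the 5 tested members (y axis). Black points and bars give RG@M-γ-CD minus PBS with the 95% interval over 3 arrays per group, grey ticks the value with 1 array left out, and orange diamonds the heat map grouping. The interval excludes 0 for Il23a only, before adjustment over all genes, and the diamonds of Il17ra, Il22ra1 and Il22ra2 lie on the other side of 0.

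The relatives of the axis were described by lists chosen with these data already known, and no list was tested as a whole. Among other IL-17 ligands and receptors, 3 of 4 tested genes were higher in mean (median 0.33), with Il17d at 0.59 (SE 0.38), Il17rb, the IL-25 receptor chain, at 0.34, Il17re, the IL-17C receptor chain, at 0.32 and Il17rd at -0.06. The ligand genes Il17b, Il17c and Il25 were not well above background on any array. In the IL-12 arm 2 of 5 genes could be tested: Stat4, which carries the IL-12 signal, was at -2.50, -2.69 and -2.66 with RG@M-γ-CD and -1.53, -1.999 and -2.46 with PBS. The Stat4 groups did not overlap, and the log2 difference was -0.62 (SE 0.25; limma adjusted p = 1.0). Ifng, the cytokine of the IL-12 arm, passed the filter through the treated arrays alone, being well above background on 2 of 3 PBS arrays, and its log2 difference was 0.58 (SE 0.59), a direction that the filter favors. Tbx21 and Il12rb2 were not well above background on any array. In the IL-10 family Il10ra differed by -0.65 (SE 0.33) and Il20rb by 0.03, while Il10, Il19, Il20 and Il24 were not well above background on any array.

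The intracellular IL-17 signaling genes differed little, and all 22 could be tested. Of these, 20 were lower in mean (median -0.15) and 0 passed the adjusted threshold. Traf3ip2, encoding the Act1 adapter that binds the IL-17 receptor, differed by -0.02 (SE 0.16). Zc3h12a, an RNase that limits IL-17 responses, had the largest difference at -0.43 (SE 0.20), followed by Nfkbiz at -0.29 and Cebpd at -0.28, both transcriptional regulators of IL-17 responses. The 2 genes higher in mean were Traf5 at 0.23 and Usp25 at 0.09.

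Genes of Th17 cells and related lymphocytes were split, with 7 higher and 9 lower of 16 tested (median -0.08). Il7r, the IL-7 receptor chain on T cells and innate lymphoid cells, was at -0.53, -1.37 and -1.43 with RG@M-γ-CD and -0.29, -0.40 and -0.17 with PBS. The Il7r groups did not overlap, and its log2 difference was -0.83 (SE 0.27; limma adjusted p = 1.0). The next lower were Il21r at -0.76 and Batf at -0.63, and the highest were Id2 at 0.50, Sox13 at 0.42 and Maf at 0.37. Il21 was not well above background on the 6 arrays.

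Among the inducers and sources of IL-23, 7 of 11 tested genes were lower in mean (median -0.19). Il1b, which acts with IL-23 on lymphocytes, differed by -0.97 (SE 0.58), Itgax, a dendritic cell and macrophage integrin gene, by -0.68 and Irf4 by -0.61. Cd14, a co-receptor for bacterial lipopolysaccharide, was at 3.83, 3.56 and 3.52 with RG@M-γ-CD and 4.09, 3.88 and 4.16 with PBS. The Cd14 groups did not overlap, and its log2 difference was -0.41 (SE 0.17; limma adjusted p = 1.0). Il6 at 0.88, the prostaglandin receptor gene Ptger2 at 0.59 and the flagellin receptor gene Tlr5 at 0.28 were the highest, and Ptger2 passed the filter through the treated arrays alone, with 2 of 3 PBS arrays well above background.

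The genes known to respond to IL-17 were mostly lower in mean on the treated arrays. Of 24 tested genes 23 were lower in mean (median -1.01, against -0.01 for all genes), and 52.8% of all genes were lower. An unadjusted p below 0.05 was reached by 7, all lower, against 1.33% of all genes lower at that level. In 7 every treated array fell under every PBS array, against 2.19% of all genes, and 0 passed the adjusted threshold. This list too was chosen with these data known, so its counts are a description and not a test. Many of these genes also answer to TNF and IL-1, so that they do not read IL-17 alone. Cxcl3, Mmp9 and Cxcl2 passed the filter through the PBS arrays alone, which favors a lower value, Cxcl3 being 1 of the 7 without overlap, and with a filter on all 6 arrays 20 of 21 were lower (median -0.93). Leaving out RG@M-γ-CD replicate 1 gave a median of -1.52 and leaving out RG@M-γ-CD replicate 2 one of -0.70, the extremes over the 6 arrays, and it was -0.94 in the heat map grouping.

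Nos2, the inducible nitric oxide synthase, had levels of 1.60, 0.45 and 0.23 with RG@M-γ-CD and 3.38, 2.15 and 3.25 with PBS. All treated arrays were below all PBS arrays, and the mean was 4.48-fold lower (log2 difference -2.16, SE 0.47; limma adjusted p = 1.0). Cxcl5, a neutrophil-attracting chemokine, was at 4.11, 1.56 and 2.76 against 5.54, 4.44 and 5.23, again without overlap. Its mean was 4.78-fold lower (log2 difference -2.26, SE 0.65; limma adjusted p = 1.0).

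The epithelial oxidase genes Nox1 and Duox2 also kept their groups apart. Nox1 was at -0.68, -0.67 and -0.87 with RG@M-γ-CD and 0.13, -0.32 and 0.03 with PBS (log2 difference -0.68, SE 0.18). Duox2 was at -0.16, -0.88 and -1.11 against -0.03, -0.03 and 0.70 (log2 difference -0.93, SE 0.33). Mmp3, a matrix metalloproteinase, was at -1.82, -0.91 and -1.08 against 0.24, -0.70 and -0.21 (log2 difference -1.04, SE 0.33), and no treated array reached the PBS range.

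Ccl7, a monocyte-attracting chemokine, was at 0.16, -0.71 and -1.40 with RG@M-γ-CD and 1.99, 0.15 and 0.80 with PBS, with an overlap between RG@M-γ-CD replicate 1 and PBS replicate 2 (log2 difference -1.63, SE 0.57). Cxcl3, another neutrophil-attracting chemokine, was at -2.58, -6.46 and -3.02 against -1.17, -2.43 and -1.35 and was well above background on 2 of 3 treated arrays. The difference of S100a8, a calprotectin subunit that neutrophils hold in abundance, was -2.52 (SE 1.40), with RG@M-γ-CD replicate 1 at 3.24 inside the PBS range of 1.33 to 3.56 and the other treated arrays at -2.24 and -0.80. Ccl20, which draws CCR6-bearing Th17 cells, differed by -0.31 (SE 0.25). Il6, a cytokine, was the 1 gene of the list higher in mean, at -0.80, -2.23 and -3.26 with RG@M-γ-CD and -3.20, -3.28 and -2.45 with PBS. RG@M-γ-CD replicate 1 carried its log2 difference of 0.88 (SE 0.61), which was 0.23 without that array and -0.72 in the heat map grouping.

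The genes known to respond to IL-22 were also lower on the treated arrays, for 18 of 20 tested genes (median -1.23, against -0.01 and 52.8% lower for all genes). Of these 20 genes 7 reached an unadjusted p below 0.05, all lower, and 6 did not overlap between the groups, against 1.33% and 2.19% of all genes, while 0 passed the adjusted threshold. The IL-22 list was likewise chosen with these data known, so its counts are a description and not a test. Lcn2, S100a8 and S100a9 stand on this list and on the IL-17 list, 15.0% of the one and 12.5% of the other. With a filter on all 6 arrays 17 of 19 were lower (median -1.19), and the median without 1 array ranged from -1.37 to -0.73, the latter without PBS replicate 3. It was -0.77 in the heat map grouping and -0.73 with the slide row as a block.

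Reg3g, a bactericidal lectin and the usual readout of IL-22 in the gut, had levels of 2.15, 1.15 and 3.24 with RG@M-γ-CD and 5.20, 6.13 and 5.58 with PBS. The lowest PBS array was above the highest treated array. The means were 2.18 ± 1.05 (SD, n = 3) and 5.64 ± 0.46 (SD, n = 3), 11-fold lower with RG@M-γ-CD (log2 difference -3.46, SE 0.54, 95% interval -4.75 to -2.16). The limma p was 0.000497 and the adjusted p 1.0, and with 1 array left out the difference ranged from -3.99 to -2.94. Reg3b, its close relative, was at 0.79, -2.87 and 2.84 against 4.51, 6.16 and 5.22, a log2 difference of -5.05 (SE 1.37; limma adjusted p = 1.0) that ranged from -6.34 to -3.49 with 1 array left out. Il22 was well above background on PBS replicate 1 alone, and that array had the lowest Reg3g and Reg3b levels of the PBS group. Whether the genes of this list read IL-22 in these samples was not tested. Reg1 was well above background on RG@M-γ-CD replicate 3 alone of the treated arrays, at -3.38, and on all PBS arrays, at -3.51, 0.04 and -3.88. It passed the filter through the PBS arrays alone, and its groups overlapped.

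Reg genes are also expressed by exocrine pancreas, and several markers of that tissue were highest on the same array. Prss2, a trypsinogen gene, was not well above background on the treated arrays and was at -3.05, -0.28 and -4.34 on the PBS arrays. Cela2a, an elastase gene, was well above background on PBS replicates 2 and 3 alone, at 2.86 and -1.81. Both were highest on PBS replicate 2, as Reg3g, Reg3b and Reg1 were. Without PBS replicate 2 the difference of Reg3g was -3.21 and that of Reg3b -4.62. Only 3 of the 9 pancreas markers could be tested. Prss2 and Ctrb1 passed the filter through the PBS arrays alone, which favors a lower value, and Cela1, the 1 of them measured on all 6 arrays, differed by 0.17 (SE 0.31). The part of this tissue in the Reg differences was not tested.

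Lrg1, an acute-phase glycoprotein, was at 3.78, 1.43 and 2.93 with RG@M-γ-CD and 4.63, 4.73 and 5.45 with PBS, without overlap (log2 difference -2.22, SE 0.59). Lcn2, an iron-scavenging antimicrobial protein, was at 4.57, 1.70 and 3.20 against 4.62, 4.86 and 5.64 (log2 difference -1.88, SE 0.71), and RG@M-γ-CD replicate 1 lay just under the lowest PBS array. Fut2, which fucosylates the epithelial surface, was at -2.30, -2.23 and -2.52 against -1.96, -1.79 and -1.32, without overlap (log2 difference -0.66, SE 0.21).

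Lbp, which binds lipopolysaccharide, differed by -1.19 (SE 0.43) and the membrane mucin gene Muc1 by -1.26 (SE 0.51), and in both the groups overlapped. Il18 at 0.11 and the survival gene Mcl1 at 0.14 were the 2 genes higher in mean.

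**Figure D3:**
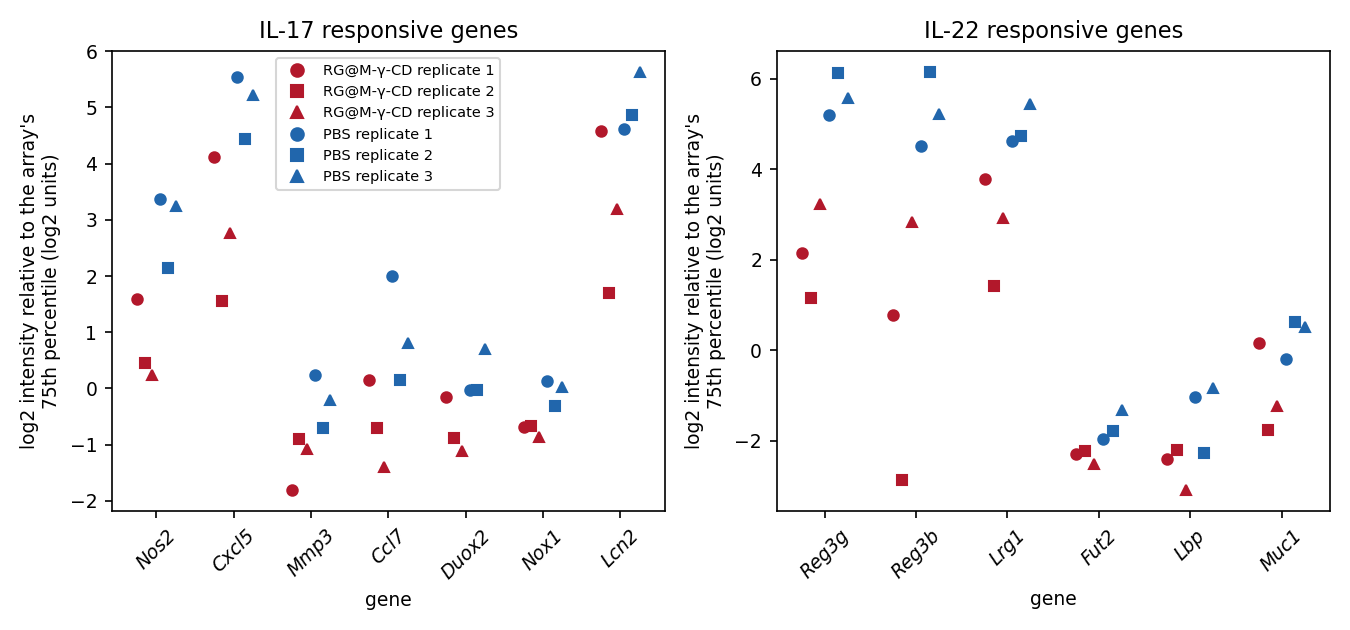
Levels as log2 intensity relative to the 75th percentile of each array (y axis) for the IL-17 responsive genes (left) and IL-22 responsive genes (right) below an unadjusted p of 0.05, 1 point per array, red for RG@M-γ-CD and blue for PBS. Lcn2 belongs to both lists and is drawn at the left. Reg3g and Reg3b show the widest gaps between the groups, and RG@M-γ-CD replicate 1 is the treated array nearest the PBS arrays for Nos2, Cxcl5, Lcn2 and Lrg1.

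**Figure D4:**
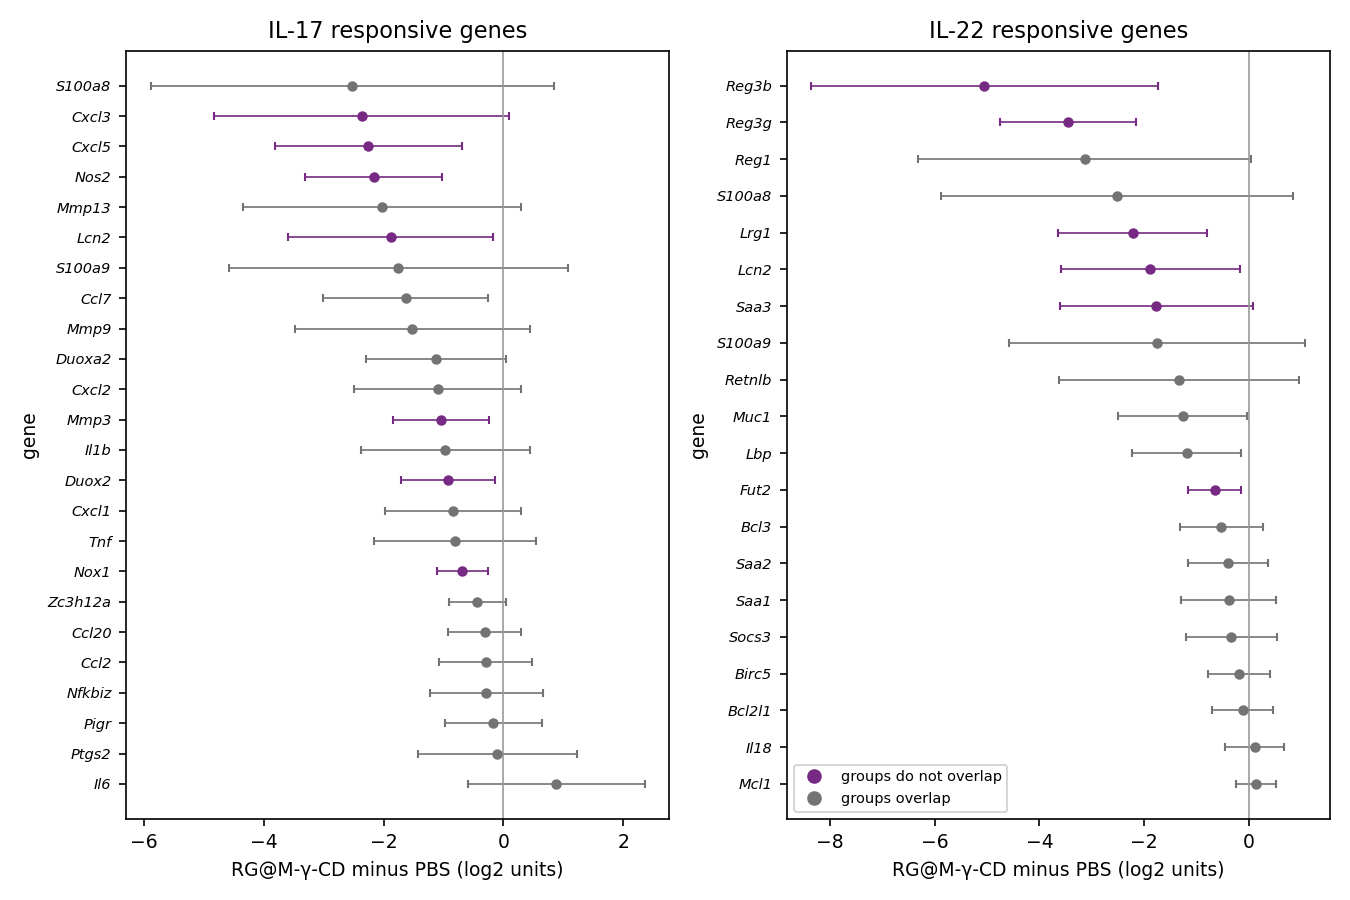
RG@M-γ-CD minus PBS in log2 units (x axis) with the 95% interval over 3 arrays per group for every tested gene of the IL-17 (left) and IL-22 (right) responsive lists (y axis). Purple marks genes whose groups do not overlap, 7 at the left and 6 at the right, all lower with RG@M-γ-CD. The intervals are not adjusted over genes, and Cxcl3, Mmp9, Cxcl2 and Reg1 passed the filter through the PBS arrays alone.

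Neutrophil markers and both responsive lists were lowest on RG@M-γ-CD replicates 2 and 3, while the order of the other arrays differed between the lists. Averaged over the 7 tested neutrophil markers and centered on the 6 arrays, their level was 0.78, -1.47 and -0.92 with RG@M-γ-CD and 0.65, 0.06 and 0.90 with PBS. PBS replicate 3 and RG@M-γ-CD replicate 1 were highest and RG@M-γ-CD replicates 2 and 3 lowest. The 3 arrays on which Il17a was well above background, RG@M-γ-CD replicate 1 and PBS replicates 1 and 3, had the 3 highest averages, and levels of Il17a on the other arrays have no order. The same average was 0.33, -1.26 and -0.71 against 0.71, 0.17 and 0.77 for the IL-17 responsive genes and -0.10, -1.42 and -0.57 against 0.42, 0.73 and 0.95 for the IL-22 responsive genes. The groups did not overlap for the IL-22 list, and RG@M-γ-CD replicate 1 lay within the PBS range for the IL-17 list. PBS replicate 1, where alone Il22 was well above background, had the lowest IL-22 list average of the PBS arrays. S100a8 and S100a9 stand on the neutrophil and both responsive lists. Neutrophil markers were lower in mean for 5 of 7 genes (median -1.52), and Ngp was not well above background on the 6 arrays. Cxcr2 passed the filter through the PBS arrays alone and Camp through the treated arrays alone. Only for Camp did the groups not overlap, and it was higher by 0.54 (SE 0.21), a direction that the filter favors. No neutrophil marker was lower at an unadjusted limma p below 0.05. Summed levels were 47.0 to 99.7 with RG@M-γ-CD against 59.8 to 104 with PBS. Csf3r, at 5.02, 6.25 and 5.30 against 6.01, 5.19 and 5.18, made up much of these sums. The part of neutrophils in the differences of the responsive genes was not tested.

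**Figure D5:**
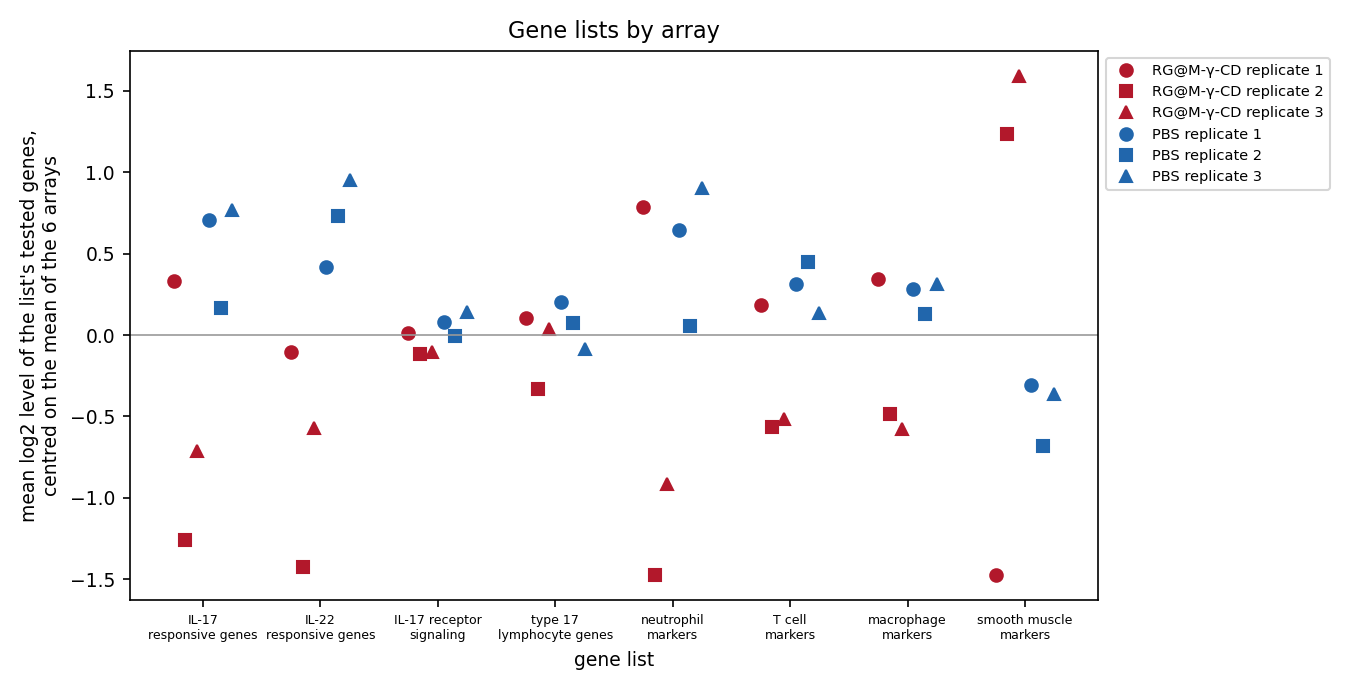
Mean log2 level of the tested genes of 8 gene lists (x axis), each gene centered on its mean over the 6 arrays (y axis), 1 point per array, red for RG@M-γ-CD and blue for PBS. RG@M-γ-CD replicates 2 and 3 are low for neutrophil, T cell and macrophage markers and high for smooth muscle markers, while RG@M-γ-CD replicate 1 is the lowest array for smooth muscle markers.

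When RG@M-γ-CD replicate 1 was left out, 202 of 19466 genes passed the adjusted threshold, 39 of them lower, and 0 members did. On the IL-17 list 3 genes then passed, Cxcl1 at -1.40 (limma adjusted p = 0.0402), Il1b at -1.68 and S100a9 at -3.17, and on the IL-22 list S100a9 alone, while 22 of 24 and 18 of 20 genes were lower in mean. Marker genes passed in the same fit as well. They were 4 of 6 smooth muscle markers (Acta2, Cnn1, Myh11 and Tagln) and the fibroblast marker Lum, all higher. Of 7 neutrophil markers 2 passed, Cxcr2 and S100a9, both lower.

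The heat map grouping turned the direction of further named genes. Of those lower by the labels, Irf4 was then at 0.66, Ccl20 at 0.36, Mmp3 at 0.33, Il21r at 0.19, Nfkbiz at 0.13, Traf3ip2 at 0.06 and Stat4 at 0.03. Of those higher by the labels, Il17rb was at -0.38, Sox13 at -0.31, Il10rb at -0.19, Il18 at -0.17 and Usp25 at -0.0031. With 1 array left out, genes higher by the labels also turned: Ifng reached -0.12, Tlr5 -0.28, Il12rb1 -0.09, Il20rb -0.18, Il18 -0.12 and Il10rb -0.10. Of those lower by the labels, Il17rd reached 0.23, Nfkbiz 0.09, Traf3ip2 0.04, Jak1 0.03 and Irf4 0.01.

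The genes whose levels over the 6 arrays most resembled each member were sought among 18117 other genes well above background on all arrays. The measure, Pearson's r over 6 arrays, is a description, since with so few arrays many genes reach high values. Il23a was nearest to Ebi3 (r = 0.993), Hcls1 (0.993) and Sla (0.991), and 184 genes had r above 0.9. Ebi3 was at -0.51, -1.23 and -1.19 with RG@M-γ-CD and -0.13, -0.59 and -0.60 with PBS, and like Il23a it was highest in PBS replicate 1 and lowest in RG@M-γ-CD replicates 2 and 3. Il17ra was nearest to Dock10 (0.988), Pstpip1 (0.988) and Rasal3 (0.985), all highest in PBS replicate 1. Il17rc was nearest to Angpt1 (0.996), Asphd2 (0.994) and Mab21l2 (0.994), with 357 genes above 0.9. Il22ra1 was nearest to 2 transcripts without a symbol (0.995 and 0.994) and Gabra2 (0.992), with 457 genes above 0.9. Il22ra2 stood most alone, with 12 genes above 0.9, led by a transcript without a symbol (0.970), Gm32391 (0.955) and Ush1g (0.943).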

How the data were processed

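For each of the 6 arrays the authors deposited the output of the scanner software (Agilent Feature Extraction 10.7.1.1), with spot intensity after background correction, mean signal and local background, not normalized between arrays. They also deposited a table of log2 values per probe, whose normalization method is not given in the sources used here.

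Control spots and 790 outlier spots were left out in R 4.3.3 (data.table package, version 1.17.8), and from each log2 intensity the 75th percentile of its array was subtracted. A symbol came from the probe's accession for 32994 of 56605 gene probes, through a RefSeq gene table, and otherwise from the file. A probe entered the test if all 3 arrays of a group had it well above background, and each gene was represented by its brightest such probe. The fit was made with limma 3.58.1 (lmFit, eBayes) and Benjamini-Hochberg adjustment over all 19090 genes at 0.05. Single probes were fitted likewise over 28291 probes. The fit was tested on simulated data. Figures were drawn in Python 3.11.15 with matplotlib 3.10.9. The precision is limited by 3 arrays per group, all from 1 slide and 1 scan.

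Arrays were grouped by their labels. Members and lists were chosen with earlier results of these data known. Named genes were all members and, in each pathway list, the up to 3 largest differences in each direction, every gene at an unadjusted p below 0.05, a fixed set of partners and standard targets, and the 3 most similar genes per member. Marker genes were given where they moved with a result, so their choice was not independent of it. Marker lists without a difference given above were endothelium (5 of 5 tested genes higher, median 0.34) and fibroblasts (4 of 6 higher, median 0.05). The others were squamous epithelium (5 of 7 lower, median -0.52) and B and plasma cells (4 of 5 lower, median -0.47). Alternatives were quantile normalization, normexp with an offset of 50, the authors' table, no filter, a filter over all 6 arrays, probe means per gene, keeping outlier spots, a block for replicate number or slide row, the methods' t-test, the heat map grouping and leaving out each array. A few items of the lists are not reported here.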

Additional observations from a re-analysis of the deposited data

How the results depend on the processing

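All 17 alternatives left the count of members past the adjusted threshold at 0, and Il23a stayed lower in each, between -1.64 and -0.49, with adjusted p between 0.119 and 1.0. The count of genes past the threshold was 0 in all but 2 alternatives: 5 in the heat map grouping and 202 without RG@M-γ-CD replicate 1 (0 to 202 with 1 array left out). At an unadjusted p below 0.05 there were 419 genes, 779 without the filter, 3193 in the heat map grouping, and 241 to 2428 with 1 array left out.

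Directions of small differences turned. In the heat map grouping Il17ra was at 0.16, Il22ra1 at 0.69, Il22ra2 at 0.63 and Il17rc probe 1 at 0.26, and with the slide row as a block the second Il22ra1 probe was at 0.16. With 1 array left out Il17ra ranged from -0.20 to 0.038, Il17rc probe 2 from -0.11 to 0.43, Il17rc probe 1 from -0.19 to 0.16, Il22ra1 from -0.64 to 0.25 and Il22ra2, which kept its sign, from -1.94 to -0.084. The cause was not tested. The slide row is partly confounded with the groups, since row 2 holds PBS arrays alone.

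List medians moved by more than their spread between arrays as follows. The other IL-17 ligands and receptors were at 0.0053 without the filter, 0.075 in the heat map grouping and 0.48 with the row block. The IL-12 arm was at -0.62 with the filter on all 6 arrays, 0.49 in the heat map grouping and -0.73 with the row block. The partners were at -0.19 and the IL-10 family at 0.18 in the heat map grouping, and the IL-10 family at -0.83 with the row block. With 1 array left out the signaling genes ranged from -0.23 to -0.057 and the Th17 genes from -0.28 to 0.10. The medians of both responsive lists kept their sign in all 17 alternatives.

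Same-numbered arrays did not deviate together (correlations of -0.25, -0.23 and 0.14), so the numbers do not pair them. With the replicate block 0 genes passed the adjusted threshold, and Il23a had an unadjusted limma p of 0.00363 (adjusted p = 1.0). Signal over background limits Il17a, Il17f, Il22 and Il23r.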
